A study of Mus musculus with 6 samples.

Results

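The BCL2 family genes examined here were 10 genes chosen by name, the 4 anti-apoptotic genes Bcl2, Bcl2l1 (BCL-XL), Mcl1 and Bcl2a1b (A1), and the 6 pro-apoptotic genes Bax, Bak1, Bcl2l11 (BIM), Bid, Bbc3 (PUMA) and Pmaip1 (NOXA). All 10 were found by their Ensembl identifier among the 41388 genes of the deposited table, and all 10 passed the filter of a mean normalized count of at least 10, as did 11379 genes in all. The cells were mouse T cells of C57BL/6 background, either WT or IRF1-deficient (Irf1-/-, lacking the interferon-induced transcription factor IRF1 in every cell of the animal), with 3 libraries of each genotype. According to the study's methods, naive CD4+ T cells from the spleen and lymph nodes of young adult mice, matched for sex and age, were activated through CD3 and CD28 and cultured with IL-2, TGF-β and IL-4, the conditions for Th9 cells, which are T helper cells that make interleukin-9. The cells were taken on day 2. Both genotypes received IFN-γ, so that no library without IFN-γ entered the comparison, and the methods list an antibody to mouse IFN-γ in the medium of both. The comparison asks how the survival and death genes of IFN-γ-treated Th9 cells differ when IRF1 is missing.

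Proteins of the BCL2 family decide at the outer membrane of mitochondria whether a cell undergoes apoptosis. BAX and BAK are the effectors that open the membrane, BCL2, BCL-XL, MCL1 and A1 hold them back, and the BH3-only proteins BIM, BID, PUMA and NOXA sense stress and either block the guardians or activate the effectors. In T cells, BIM is known for the death of lymphocytes when a response ends or cytokines are withdrawn, and its balance with BCL2 and MCL1 for their survival.

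Reads on genes ranged from 5639788 to 13348230 per library, and from 6437 to 14953 of them fell on the 10 genes. T cell markers (Cd3d, Cd3e, Cd3g, Cd4, Cd2, Cd5 and Lck) summed to between 15888 and 16588 normalized counts in every library, and Il9 was read in all 6, with a mean of 1021 ± 222 in WT against 3403 ± 282 in Irf1-/- cells (SD, n = 3 each). Of the 4 NK markers 3 were at 0 in every library, whereas the 9 myeloid markers summed to between 51.2 and 151 in WT and between 39.0 and 710 in Irf1-/- libraries, the highest being Irf1-/- replicate 2. The targeted gene Irf1 kept 1662 ± 163 (SD, n = 3) normalized counts in Irf1-/- against 2845 ± 163 (SD, n = 3) in WT cells, and counts per gene do not show where on the gene these reads lie. WT replicates 1 and 2 held Y-linked transcripts (sums of 2301 and 2306 normalized counts over 4 genes), while the other 4 libraries held at most 11.1. These values go against the matching for sex that the methods state. Sex therefore cannot be told apart from genotype except through WT replicate 3, and the 10 genes and the pathway lists are therefore also given for WT replicate 3 against the 3 Irf1-/- libraries, a fit in which the single WT library is assumed to vary like the Irf1-/- libraries. The study calls the replicates of each genotype independent biological samples, while the labels do not say whether they came from separate animals, and p-values measure the spread between these libraries.

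The promoters of the genes with the clearest differences are shown first, because IRF1 acts on promoters through interferon-stimulated response elements (ISRE). RefSeq promoter sequences (GRCm38.p6), running from 250 bases before to 50 bases after an annotated start, were given for 9 of the 10 genes, with 14 starts in all. The letters AANNGAAA, the ISRE of the study's motif search, were looked for on both strands and are in capitals where found, and the lines below read 5′ to 3′ on the strand of the gene. The first annotated promoter of Bcl2l11 (chr2:128125788-128126087, + strand) held the letters on the opposite strand, beginning 4 bases before the start of the gene, and the second annotated promoter of Bcl2l11 (chr2:128127325-128127624) held none.
Bcl2l11: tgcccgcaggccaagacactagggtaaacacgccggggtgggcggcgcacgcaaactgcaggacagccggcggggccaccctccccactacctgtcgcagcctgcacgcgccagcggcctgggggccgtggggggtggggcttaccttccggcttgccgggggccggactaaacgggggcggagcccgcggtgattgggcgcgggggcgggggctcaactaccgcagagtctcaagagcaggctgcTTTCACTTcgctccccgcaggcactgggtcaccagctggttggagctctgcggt
The promoters of Bcl2 (chr1:106714241-106714540, - strand) and Bid (chr6:120916775-120917074, - strand) had no match.
Bcl2: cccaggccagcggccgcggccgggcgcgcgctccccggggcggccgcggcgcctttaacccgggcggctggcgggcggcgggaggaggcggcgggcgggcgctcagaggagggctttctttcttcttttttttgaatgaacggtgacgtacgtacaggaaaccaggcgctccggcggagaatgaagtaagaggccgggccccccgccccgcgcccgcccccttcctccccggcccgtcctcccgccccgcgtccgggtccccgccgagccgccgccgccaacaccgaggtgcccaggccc
Bid: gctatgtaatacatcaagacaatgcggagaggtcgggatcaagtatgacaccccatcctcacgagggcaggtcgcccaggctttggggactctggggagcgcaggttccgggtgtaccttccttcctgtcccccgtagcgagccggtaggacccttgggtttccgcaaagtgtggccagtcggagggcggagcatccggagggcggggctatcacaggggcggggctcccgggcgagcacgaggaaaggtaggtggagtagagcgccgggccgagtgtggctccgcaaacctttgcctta
For Bcl2l1, the letters stood in 2 of 3 annotated promoters, promoter 2 (chr2:152830668-152830967, - strand) and promoter 3 (chr2:152831679-152831978, - strand), beginning 75 and 171 bases before the start, and the 30 bases around each are shown.
Bcl2l1 promoter 2: gctggtacttaAATAGAAAgaaagaaagga
Bcl2l1 promoter 3: caccgacatcgAAAGGAAAaagcacttttt
In all, 3 of the 14 promoters, belonging to 2 of the 9 genes, held AANNGAAA, against 23.9% of the 32851 promoters of the RefSeq table, and none of the 14 held the longer form of the element, with 2 GAAA blocks set 2 bases apart, against 3.44%. A match of letters is a description and says nothing of binding.

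Irf1-/- Th9 cells held more Bcl2 and less of most death genes than WT cells, and the largest difference by far was that of Bcl2l11, at 25.9% of its WT level. Of the 6 pro-apoptotic genes 5 were lower, namely Bcl2l11, Bid, Pmaip1, Bax and Bak1, and Bbc3 was not called. The 4 anti-apoptotic genes moved apart, with Bcl2 higher, Bcl2l1 slightly lower, and Mcl1 and Bcl2a1b not called. These calls are at a Benjamini-Hochberg adjusted p below 0.05 in limma's moderated test on log2 of the normalized count plus 1. By this rule 6 of the 10 genes were lower and 1 higher, beside 12.4% lower and 11.4% higher among all 11379 genes tested (23.7% in either direction). Over all libraries, the median log2 fold change (Irf1-/- minus WT) was -0.39 for the 10 genes and -0.49 for the 6 pro-apoptotic genes, beside -0.0037 for all genes. The median over the 10 genes was -0.20 with WT replicate 3 as the only WT library, where 1 of the 6 pro-apoptotic genes, Bcl2l11, was called lower. Without WT replicate 1, those called lower were Bcl2l11 and Bid (7.23% of all genes lower). WT and Irf1-/- values were free of overlap in 7 of the 10 genes, the same 7 that were called, beside 40.5% of all genes tested. For a single gene, an exact permutation test of 3 libraries against 3 cannot give a p below 0.1. In bulk RNA, fewer cells of a type and less RNA per cell cannot be told apart.

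**Figure D1:**
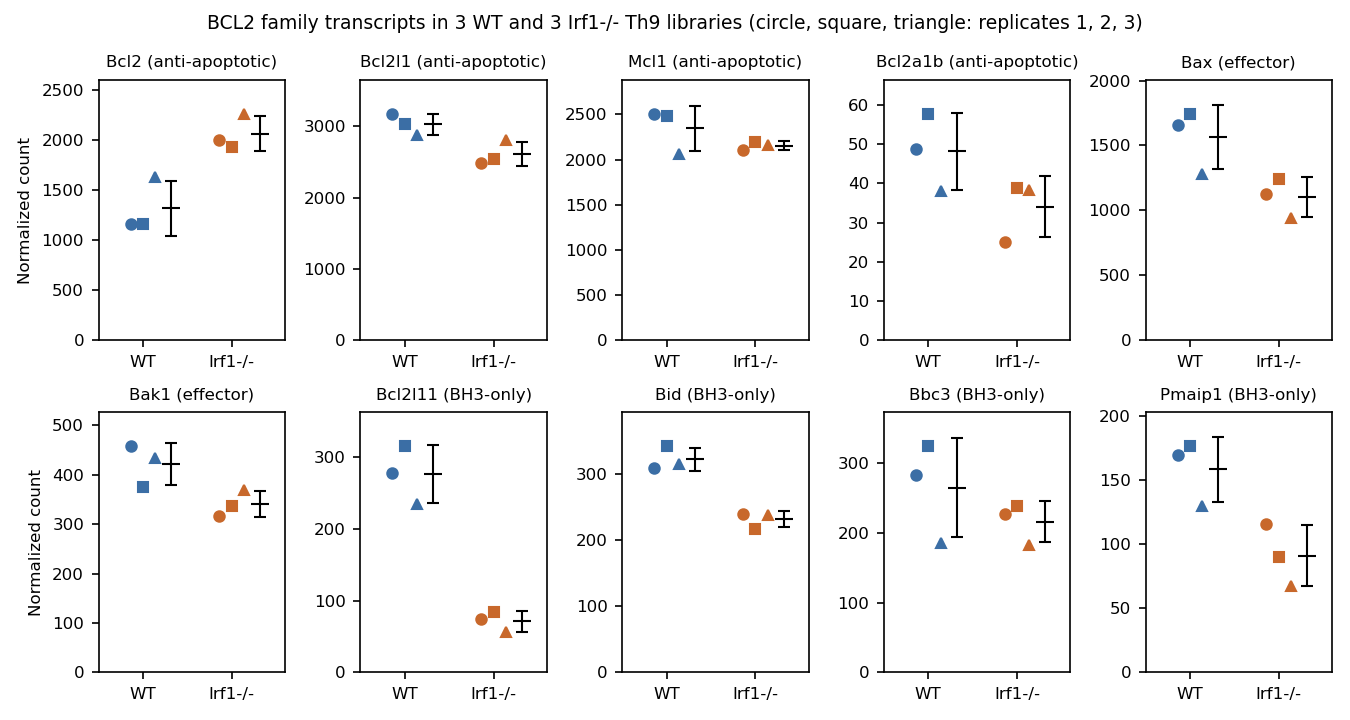
Normalized counts (reads divided by a size factor of the library) of the 10 BCL2 family genes in each WT (blue) and Irf1-/- (orange) library, with the mean and SD of 3 libraries in black; each axis starts at 0. Bcl2l11 lies between 235 and 315 in WT and between 55.6 and 84.6 in Irf1-/- libraries, and WT replicate 3 (triangle) is the WT library nearest to the Irf1-/- values for Bcl2, Bax and Pmaip1.

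Among the BH3-only genes, Bcl2l11 (ENSMUSG00000027381, chromosome 2 of GRCm38 from 128126038 to 128162547) encodes BIM, which binds all the guardians. Its normalized counts were 278, 315 and 235 in the WT libraries 1, 2 and 3, against 74.0, 84.6 and 55.6 in the Irf1-/- libraries 1, 2 and 3. The lowest WT library thus stood far above the highest Irf1-/- library, and the reads behind these values numbered from 223 to 382 in WT and from 61 to 87 in Irf1-/- libraries. The mean was 276 ± 40.1 in WT against 71.4 ± 14.7 in Irf1-/- cells (SD, n = 3 each), corresponding to a log2 fold change of -1.95 (95% confidence interval -2.31 to -1.58, limma adjusted p = 3.24e-05). With WT replicate 3 as the only WT library the log2 fold change was -1.72 (limma adjusted p = 0.00243), where 3.54% of all genes were called lower. In the 4 smaller libraries, replicates 1 and 2 of each genotype, it was -1.89, and in the pair of larger libraries, replicate 3 of each, it was -2.06. Bcl2l11 was called lower under all 19 alternatives run, with a log2 fold change between -2.08 and -1.72.

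Bid (ENSMUSG00000004446, chromosome 6 from 120891930 to 120916853), whose protein is cut by caspase-8 and links death receptors to mitochondria, had the smallest spread between libraries of the pro-apoptotic genes. Its normalized counts were 309, 343 and 316 in WT and 240, 218 and 238 in Irf1-/- replicates 1, 2 and 3. All WT values lay above all Irf1-/- values, with means of 323 ± 17.6 and 232 ± 12.4 (SD, n = 3 each). The log2 fold change was -0.47 (95% confidence interval -0.66 to -0.29, limma adjusted p = 0.00312). It was nearly as large, -0.45, with WT replicate 3 as the only WT library, but not called there (limma adjusted p = 0.0812). Exons of Bcl2l13 on the other strand cover 17.7% of the exon bases of Bid, and the counting is not stated to use strand. Bcl2l13 itself, a mitochondrial member of the family, differed by a log2 fold change of -0.03 (limma adjusted p = 0.841).

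Pmaip1 (ENSMUSG00000024521, chromosome 18 from 66458533 to 66465565) encodes NOXA, which neutralizes MCL1. It had 170, 177 and 130 normalized counts in WT and 116, 90.1 and 67.7 in Irf1-/- replicates 1, 2 and 3. The groups were close, with WT replicate 3 just above Irf1-/- replicate 1, and did not overlap. The log2 fold change was -0.81 (95% confidence interval -1.24 to -0.39, limma adjusted p = 0.0122). Without WT replicate 1 or 2 the gene was no longer called (limma adjusted p = 0.0526 and 0.0590), and with WT replicate 3 alone the log2 fold change was -0.54 (limma adjusted p = 0.269).

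Bbc3 (ENSMUSG00000002083, chromosome 7 from 16308393 to 16318205), the gene of PUMA and a classical target of p53, did not pass the test. Normalized counts were 283, 325 and 186 in WT and 227, 239 and 183 in Irf1-/- replicates 1, 2 and 3. WT replicates 1 and 2 were above all Irf1-/- libraries, while WT replicate 3 was close to the lowest of them. The log2 fold change of -0.26 (95% confidence interval -0.67 to 0.14, limma adjusted p = 0.335) became -0.50 without WT replicate 3, with a call (limma adjusted p = 0.0132), and 0.20 with WT replicate 3 alone (limma adjusted p = 0.539). The direction stayed negative with any single library left out.

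Of the effectors, Bax (ENSMUSG00000003873, chromosome 7 from 45461697 to 45466898) had 1661, 1743 and 1281 normalized counts in WT and 1129, 1243 and 939 in Irf1-/- replicates 1, 2 and 3. WT replicate 3 exceeded the highest Irf1-/- library only slightly. The means were 1562 ± 247 and 1104 ± 154 (SD, n = 3 each), corresponding to a log2 fold change of -0.50 (95% confidence interval -0.77 to -0.23, limma adjusted p = 0.0145). The call was lost without WT replicate 1 or 2 (limma adjusted p = 0.0633 and 0.0701), and the log2 fold change was -0.22 with WT replicate 3 alone (limma adjusted p = 0.363). Within the pair of larger libraries it was -0.45 and within the smaller ones -0.52. In GENCODE M21 the same-strand gene Gm45808 covers 12.2% of the exon bases of Bax, and 8.51% of the stretches of 50 bases in transcripts of Bax also occur in it. No entry for Gm45808 was found in the deposited counts.

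Bak1 (ENSMUSG00000057789, chromosome 17 from 27019810 to 27029009), the effector that sits in the mitochondrial membrane of healthy cells, had 458, 375 and 435 normalized counts in WT and 316, 337 and 369 in Irf1-/- replicates 1, 2 and 3. WT replicate 2 was only just above Irf1-/- replicate 3, so that the groups nearly touched without overlap. The log2 fold change was -0.31 (95% confidence interval -0.52 to -0.10, limma adjusted p = 0.0388). Its size held with WT replicate 3 alone, at -0.35, but the call did not (limma adjusted p = 0.136). The call was also lost without WT replicate 1 (adjusted p = 0.149), WT replicate 3 (0.0716), Irf1-/- replicate 1 (0.138) or Irf1-/- replicate 2 (0.106), all from limma, and in DESeq2 (adjusted p = 0.0787). Exons of Ggnbp1 on the other strand cover 25.5% of the exon bases of Bak1, and Ggnbp1 was read at a mean of 27.0 ± 2.96 in WT against 33.5 ± 3.54 in Irf1-/- cells (SD, n = 3 each), without a call (limma adjusted p = 0.334).

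Bcl2 (ENSMUSG00000057329, chromosome 1 from 106538178 to 106714274), the founding survival gene of the family and a partner of BIM, was the only one of the 10 genes called higher in Irf1-/- cells. Its normalized counts were 1162, 1161 and 1630 in WT and 2005, 1932 and 2264 in Irf1-/- replicates 1, 2 and 3. All Irf1-/- libraries lay above all WT libraries, and replicate 3 was the highest within each genotype. From a mean of 1318 ± 271 (SD, n = 3) in WT cells it rose to 2067 ± 174 (SD, n = 3) in Irf1-/- cells, corresponding to a log2 fold change of 0.66 (95% confidence interval 0.40 to 0.93, limma adjusted p = 0.003). Leaving out any single library kept the call, with log2 fold changes between 0.58 and 0.83. With WT replicate 3 alone it was 0.34 (95% confidence interval 0.11 to 0.56, limma adjusted p = 0.0730), and with the Y-linked transcripts as a covariate it was 0.34 with a call (limma adjusted p = 0.0290). An antisense gene that overlaps 6.09% of the exon bases of Bcl2 had at most 5.75 normalized counts.

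Bcl2l1 (ENSMUSG00000007659, chromosome 2 from 152780668 to 152831728) encodes BCL-XL, which T cells induce on costimulation. It had 3172, 3034 and 2881 normalized counts in WT and 2491, 2546 and 2804 in Irf1-/- replicates 1, 2 and 3. The 2 replicates numbered 3 were nearly equal, and the difference lay in replicates 1 and 2. The log2 fold change was -0.21 (95% confidence interval -0.35 to -0.08, limma adjusted p = 0.0288), -0.30 among the 4 smaller libraries but -0.04 between the 2 larger ones. It was not called without WT replicate 1 (adjusted p = 0.124), WT replicate 2 (0.0933), Irf1-/- replicate 1 (0.115) or Irf1-/- replicate 2 (0.0971), nor with WT replicate 3 alone (0.388), all from limma.

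Mcl1 (ENSMUSG00000038612, chromosome 3 from 95658788 to 95663176), whose short-lived protein restrains BAK and BIM, had 2506, 2479 and 2060 normalized counts in WT and 2103, 2200 and 2161 in Irf1-/- replicates 1, 2 and 3. WT replicate 3 was the lowest of all 6 libraries, so that the groups overlapped. The log2 fold change was -0.12 (95% confidence interval -0.28 to 0.04, limma adjusted p = 0.278), and it was -0.21 without WT replicate 3, with a call (limma adjusted p = 0.0128), and 0.06 with that library as the only WT library (limma adjusted p = 0.696).

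Bcl2a1b (ENSMUSG00000089929, chromosome 9 from 89199209 to 89207827) is one of several near-identical mouse genes for A1, a target of NF-κB. It had 48.7, 57.7 and 38.1 normalized counts in WT and 25.1, 38.8 and 38.3 in Irf1-/- replicates 1, 2 and 3, from 21 to 62 reads. The groups overlapped, and the log2 fold change of -0.49 (95% confidence interval -1.01 to 0.03) was not called (limma adjusted p = 0.157), nor was that of -0.18 with WT replicate 3 alone (limma adjusted p = 0.806). These values are uncertain, since 79.2% of the stretches of 50 bases in its transcripts also occur in transcripts of another gene, mainly Bcl2a1d, Gm29094 and Bcl2a1a, and the same-strand gene Gm29094 covers 49.1% of its exon bases. Of these copies, Bcl2a1d had 68.4 ± 8.21 normalized counts in WT against 61.3 ± 15 in Irf1-/- cells (SD, n = 3 each), at a log2 fold change of -0.17 (limma adjusted p = 0.554). Bcl2a1c had at most 3.61 in any library, and Bcl2a1a and Gm29094 were at 0 in all 6. How reads shared between these copies were counted is not described, so a count of 0 need not mean that no transcript was present. For the other 9 genes, at most 17.1% of such stretches occurred in transcripts of another gene. That value was for Bak1, whose shared stretches were all in Ggnbp1, which overlaps it at the same place. Irf1-/- replicate 2, the library highest in myeloid markers, also had the highest Bcl2a1b value of its group, though close to replicate 3. The part of myeloid cells in this was not tested.

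**Figure D2:**
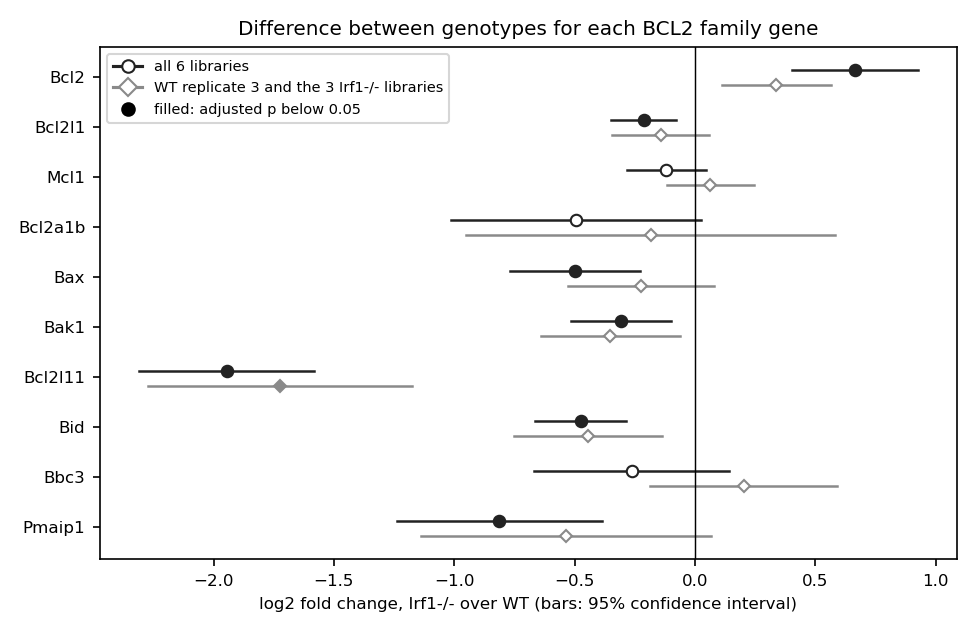
Log2 fold change (Irf1-/- minus WT) for each gene with its 95% confidence interval from limma, for all 6 libraries (black circles) and for WT replicate 3 with the 3 Irf1-/- libraries (grey diamonds); filled symbols have an adjusted p below 0.05. Bcl2l11, at -1.95 and -1.72, is the only gene filled in both fits, and the symbols of Bbc3 and Mcl1 cross 0.

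With WT replicate 3 as the only WT library, 1 of the 10 genes was called lower, namely Bcl2l11, where 7.12% of all genes were called in either direction. With the Y-linked transcripts as a covariate, Bcl2l11 and Bid were lower and Bcl2 higher, beside 6.78% of all genes lower and 11.9% called in either direction. On the recovered reads, edgeR called 6 of the 10 genes lower and 1 higher (12.5% of all genes lower, 23.5% in either direction). DESeq2 called 5 lower and 1 higher (9.32% lower, 17.6% in either direction). With the replicate number as a block in limma, 7 were lower and 1 higher, where 18.6% of all genes were lower and 35.2% were called in either direction. For all of the 10 genes except Bak1 and Bid, WT replicate 3 lay nearer to the Irf1-/- mean than WT replicates 1 and 2 did. The larger library and the absence of Y-linked transcripts both set that library apart from the other WT libraries, and they cannot be told apart in WT cells.

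Ratios of survival to death transcripts were formed within each library, where the size factor cancels but for the 1 added to each value. Of 10 pairs, 4 had higher values in all Irf1-/- than in all WT libraries, namely Bcl2 to Bcl2l11, Bcl2 to Bax, Mcl1 to Bcl2l11 and Mcl1 to Pmaip1, and the other 6 overlapped. Among single genes, the share without overlap was 40.5%, so that 4 of 10 is near the background. These pairs combine genes already described, and no test was made of them. The log2 ratio of Bcl2 to Bcl2l11 was 2.06, 1.88 and 2.79 in WT and 4.74, 4.50 and 5.32 in Irf1-/- replicates 1, 2 and 3. On average it was 2.61 higher in Irf1-/- cells, that is 6.11 times the WT ratio. For Bcl2 to Bax the log2 ratio was -0.52, -0.59 and 0.35 in WT and 0.83, 0.64 and 1.27 in Irf1-/- replicates 1, 2 and 3. Bax thus had more normalized counts than Bcl2 in WT replicates 1 and 2, and Bcl2 more than Bax in the other 4 libraries. Mcl1 to Bcl2l11 differed by 1.83 and Mcl1 to Pmaip1 by 0.69 on the log2 scale. For pairs with Bak1 the differences were smaller, 0.09 for Bcl2l1 to Bak1 and 0.19 for Mcl1 to Bak1.

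**Figure D3:**
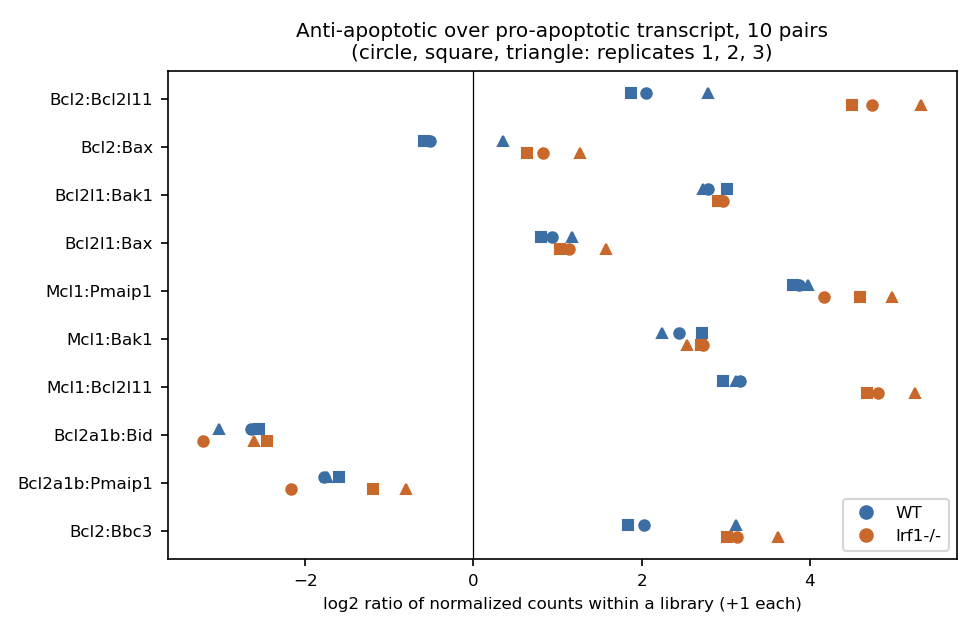
Log2 ratio of the normalized counts (1 added to each) of an anti-apoptotic to a pro-apoptotic gene within each WT (blue) and Irf1-/- (orange) library, for 10 pairs. The orange symbols lie to the right of all blue ones for Bcl2:Bcl2l11, Bcl2:Bax, Mcl1:Bcl2l11 and Mcl1:Pmaip1 and overlap with them in the other 6 pairs.

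To compare levels between genes, normalized counts were divided by the length of the union of annotated exons, giving a normalized count per kb. By this level Bax, Mcl1 and Bcl2l1 led in both genotypes, with means of 991 ± 156, 687 ± 73.2 and 661 ± 31.8 (SD, n = 3 each) in WT cells. Then came Bak1 at 176 ± 17.8, Bcl2 at 144 ± 29.5, Bbc3 at 125 ± 33.4 and Bid at 90.9 ± 4.95 in WT cells. Bcl2a1b at 59.0 ± 12, Pmaip1 at 58.1 ± 9.29 and Bcl2l11 at 34.4 ± 5.0 (SD, n = 3 each) were lowest. In this order the WT ranges of neighbours overlapped between Mcl1 and Bcl2l1, along Bak1, Bcl2, Bbc3 and Bid, and between Bcl2a1b and Pmaip1, so that these neighbours did not differ beyond their spread. In Irf1-/- cells Bcl2, at 226 ± 19.0, changed places with Bak1, at 142 ± 11.1, and their ranges no longer overlapped. Bcl2l11 stayed last at 8.89 ± 1.83 (SD, n = 3) per kb. It made up 10.9%, 11.1% and 11.5% of the summed level of the 4 BH3-only genes in WT and 4.08%, 4.85% and 3.74% in Irf1-/- replicates 1, 2 and 3.

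Summed by class, the 4 anti-apoptotic genes reached 1550 ± 83.3 (SD, n = 3) normalized counts per kb in WT and 1468 ± 65.6 in Irf1-/- cells, values that overlapped between genotypes. The 6 pro-apoptotic genes reached 1475 ± 199 in WT against 1051 ± 108 in Irf1-/- cells (SD, n = 3 each), without overlap. The ratio of the first sum to the second was 1.03, 0.981 and 1.17 in WT and 1.31, 1.27 and 1.65 in Irf1-/- replicates 1, 2 and 3. Bax makes up most of the pro-apoptotic sum, and the sums of transcripts per length do not measure protein.

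**Figure D4:**
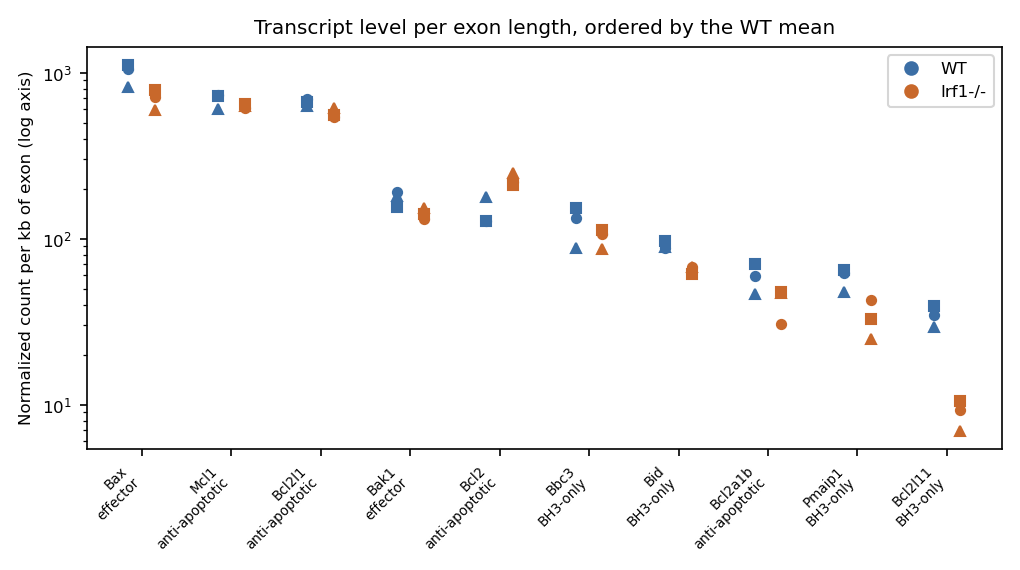
Normalized count per kb of exon (log axis) of the 10 genes in each WT (blue) and Irf1-/- (orange) library, ordered by the WT mean; circles, squares and triangles are replicates 1, 2 and 3. Bax, Mcl1 and Bcl2l1 are highest in both genotypes, and the gap between genotypes is widest for Bcl2l11, from 34.4 to 8.89.

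Among 16 further genes of the family, 10 were tested and 3 were called, all higher in Irf1-/- cells, beside 11.4% higher among all genes. Bcl2l2 (BCL-W), another survival gene, had 163 ± 18.4 in WT against 213 ± 8.02 normalized counts in Irf1-/- cells (SD, n = 3 each), corresponding to a log2 fold change of 0.39 (limma adjusted p = 0.0244). Bnip3 and Bnip3l, known for the removal of mitochondria by autophagy and for their response to low oxygen, rose by 1.55 (limma adjusted p = 0.00135) and 0.71 (limma adjusted p = 0.0195) on the log2 scale. Bnip3 went from 130 ± 59.4 to 363 ± 50.9 (SD, n = 3 each) normalized counts and was called under all 19 alternatives. Its log2 fold change with WT replicate 3 alone was 0.86 (limma adjusted p = 0.0101), while Bnip3l at 0.26 (limma adjusted p = 0.430) and Bcl2l2 at 0.28 (limma adjusted p = 0.288) were not called. The calls of Bcl2l2 and Bnip3l were lost without WT replicate 2 (adjusted p = 0.0932 and 0.0793) or without Irf1-/- replicate 2 (0.0656 and 0.0527), all from limma. That of Bcl2l2 was also lost without Irf1-/- replicate 1 (adjusted p = 0.0591) or 3 (0.0550), and that of Bnip3l without WT replicate 1 (0.0793), all from limma. DESeq2 called 1 of the 10 higher, beside 8.28% of all genes, with Bcl2l2 (DESeq2 adjusted p = 0.0743) and Bnip3l (DESeq2 adjusted p = 0.0792) not called. The remaining BH3-only genes Bad, Bik and Bmf were not called, at log2 fold changes of 0.31, 0.54 and -0.37, and Bok and Hrk, with means of at most 4.93 normalized counts, were below the filter.

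Downstream of the mitochondria, 17 genes were tested, of the apoptosome and its caspases, their inhibitors, the proteins that mitochondria release, the DNA fragmentation factor and the outer membrane channels, and 4 were lower and 1 higher in Irf1-/- cells, beside 12.4% and 11.4% of all genes. Apaf1, the scaffold that activates caspase-9 once cytochrome c is released, had 607 ± 58.0 normalized counts in WT against 325 ± 14.3 in Irf1-/- cells (SD, n = 3 each). Its log2 fold change was -0.90 (limma adjusted p = 5.70e-05), and -0.75 with WT replicate 3 alone, with a call (limma adjusted p = 0.00458). Xiap, a caspase inhibitor, had a log2 fold change of -0.24 (limma adjusted p = 0.0417). Vdac3, a channel of the outer membrane, was the gene called higher, at 0.22 (limma adjusted p = 0.0499). Neither Xiap (-0.26, limma adjusted p = 0.219) nor Vdac3 (0.16, limma adjusted p = 0.449) was called with WT replicate 3 alone. Casp9 was not called (0.40, limma adjusted p = 0.125). The counts of 4 and 1 became 2 and 0 without WT replicate 1, WT replicate 2, Irf1-/- replicate 1 or Irf1-/- replicate 2, where 7.23% to 8.82% of all genes were lower and 7.07% to 7.99% higher, with Apaf1 keeping its call and Xiap, Birc3 and Vdac3 losing theirs. Without WT replicate 3 they were 3 and 2 (12.5% and 12.1% of all genes), Xiap losing its call (limma adjusted p = 0.0635) and Casp9 gaining one. Without Irf1-/- replicate 3 they stayed 4 and 1 (12.9% and 10.7% of all genes). There Vdac3 lost its call (limma adjusted p = 0.0939) and Diablo gained one (limma adjusted p = 0.0402). By DESeq2 they were 2 and 0 (9.32% and 8.28% of all genes), with Xiap, Birc3 and Vdac3 not called (DESeq2 adjusted p = 0.0712, 0.0725 and 0.187).

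In the death receptor arm, which reaches mitochondria through Bid, 3 of 8 tested genes were lower in Irf1-/- cells, beside 12.4% of all genes. Fas, the death receptor of activated T cells, fell from 268 ± 5.62 to 98.9 ± 14.0 (SD, n = 3 each) normalized counts, at a log2 fold change of -1.44 (limma adjusted p = 2.72e-05), the same to 2 decimals with WT replicate 3 alone (limma adjusted p = 0.00209). Cflar, which encodes the caspase-8 inhibitor FLIP, had a log2 fold change of -0.50 (limma adjusted p = 0.00118) and Tnfrsf10b, a receptor for TRAIL, of -0.48 (limma adjusted p = 0.0120). The call of Tnfrsf10b was lost without WT replicate 2 (limma adjusted p = 0.0593) or Irf1-/- replicate 1 (limma adjusted p = 0.0509). In the fit with WT replicate 3 alone, Cflar was called at -0.52 (limma adjusted p = 0.0282) and Tnfrsf10b was not at -0.36 (limma adjusted p = 0.227). The lower genes thus included both receptors of death and an inhibitor of their signal.

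Because Bax, Bbc3 and Pmaip1 are classical targets of p53, 14 other p53 targets were listed, of which 13 were tested. In Irf1-/- cells 10 of them were lower and 1 higher, beside 12.4% and 11.4% of all genes, and their median log2 fold change was -0.46. Earlier results of these data were known when this list was written, so the contrast with all genes describes the listed genes only. The largest decreases were those of Phlda3 (-1.41, limma adjusted p = 0.0227), Ccng1 (-1.17, limma adjusted p = 3.59e-06) and Zmat3 (-1.03, limma adjusted p = 0.00113). Ccng1, which encodes cyclin G1, had 2921 ± 238 in WT against 1298 ± 86.6 normalized counts in Irf1-/- cells (SD, n = 3 each), whereas Phlda3 had from 110 to 321 in WT and from 55.6 to 118 in Irf1-/- libraries, which overlapped. Sesn2, a stress gene that also answers to ATF4, was the one called higher, at 0.29 (limma adjusted p = 0.0110). Trp53 itself had 1949 ± 15.1 in WT against 1973 ± 32.2 normalized counts in Irf1-/- cells (SD, n = 3 each), at a log2 fold change of 0.02 (limma adjusted p = 0.834). With WT replicate 3 as the only WT library 4 of the 13 were called lower and 1 higher (3.54% of all genes lower), and 5 and 1 with the Y-linked covariate (6.78% lower). DESeq2 called 8 lower and 1 higher (9.32% and 8.28% of all genes). Leaving out a single library gave from 7 lower genes, without WT replicate 1 (7.23% of all genes lower), to 10. The latter was without WT replicate 3 (12.5%) or Irf1-/- replicate 3 (12.9%). Without Irf1-/- replicate 2 it gave 8 (7.89% of all genes lower), Phlda3 and Polk, a DNA polymerase of damage bypass, losing their calls (adjusted p = 0.0683 and 0.0688 from limma). The call of Phlda3 was lost without WT replicate 1 (adjusted p = 0.0941) or WT replicate 2 (0.0991), both from limma, and with WT replicate 3 alone its log2 fold change was -0.38 (limma adjusted p = 0.552).

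**Figure D5:**
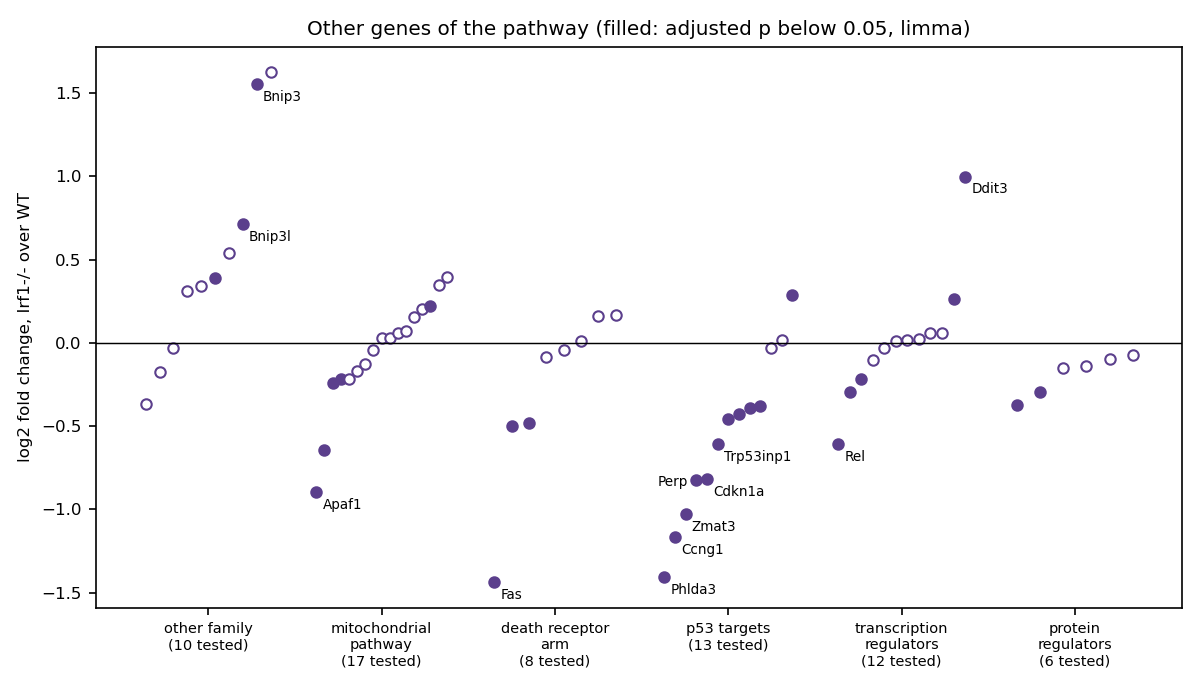
Log2 fold change (Irf1-/- minus WT) of the tested genes of 6 lists around the BCL2 family; each circle is a gene, sorted within its list, and filled circles have an adjusted p below 0.05 in limma. Among the p53 targets 10 of 13 are filled below 0, Fas and Apaf1 stand at -1.44 and -0.90, and Bnip3 stands at 1.55.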

How the data were processed

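The authors deposited a signal, the normalized count of each gene in each library: reads were aligned to GRCm38 with STAR 2.4.0b, counted on Ensembl genes with featureCounts, and each count was divided by a DESeq2 1.12.3 size factor of its library. Values above 0 were whole multiples of 1 step per column (tolerance 0.01 reads) in 100% of cases, which gave the reads back. Strand use and multi-mapping reads are not described in the sources used here. Symbols, exon lengths and overlaps came from GENCODE M21 (GRCm38), by Ensembl identifier. Genotypes were compared in R 4.3.3 with limma 3.58.1 (eBayes with trend) on log2(normalized count + 1) over 11379 genes (mean of 10 or more), p-values being adjusted by Benjamini-Hochberg over all of them with a threshold of 0.05, the false discovery rate of the study. A fold change on this scale understates that of low genes. Alternatives were DESeq2 1.42.0 and edgeR 4.0.16, both run on those reads, other pseudocounts (0.1, 10), filters (none, 50), normalizations, a replicate block and libraries left out. The script was tested on simulated data. The 10 genes, the 10 pairs and the pathway lists, written from general knowledge, were chosen with earlier results of these data known. Counts within them, set beside the shares of all genes, are therefore descriptions. All 10 genes are named whatever their result, with the A1 copies and up to 3 called genes in each direction per list. Others, such as Polk, are named where their call changed. Promoters of 3 genes and 2 windows were printed out of those called. Protein sequences were not used here. Some listed genes are counted but not reported by name here.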

Additional observations from a re-analysis of the deposited data

How the results depend on the processing

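Bcl2l11 was called lower under all 19 alternatives, and Bid and Bcl2 kept direction and call under 18 of 19, the exception being WT replicate 3 as the only WT library. Pmaip1 and Bax kept their call under 14, Bcl2l1 under 11 and Bak1 under 10 of 19. The number of BCL2 family genes called lower, 6, was 2 without a mean-variance trend (7.09% of all genes lower), 2 with the Y-linked covariate (6.78%) and 1 with WT replicate 3 alone (3.54%), where no gene was called higher (0), and the cause was not tested. With each library left out in turn, from 2 (without WT replicate 1, 7.23% of all genes lower) to 7 (without WT replicate 3, 12.5%) genes were lower and 1 higher. The 4 smaller libraries alone, of which only the WT ones hold Y-linked transcripts at more than 11.1 normalized counts, gave 9 lower and 1 higher (18.3% of all genes lower), with Mcl1, Bcl2a1b and Bbc3 added. edgeR called 6 lower (12.5% of all genes lower) and DESeq2 5 (9.32%). Mcl1 and Bbc3, not called, turned from -0.12 and -0.26 to 0.0644 and 0.20 on the log2 scale with WT replicate 3 alone or with the covariate. The log2 ratio of Bcl2a1b to Bid, -0.02 between genotypes, turned to 0.0567 with a pseudocount of 10, and lay between -0.169 and 0.206 with single libraries left out. The mean of at least 50 dropped Bcl2a1b.

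As a replicate block, the replicate number gave 7 genes lower and 1 higher, with Bbc3 added, and 4009 instead of 2699 of all genes called. Deviations from the group means correlated at 0.0922, 0.269 and 0.321 for libraries numbered 1, 2 and 3. Each library correlated best with that of its own number, a hint from the data, but the first value is under 0.1 and the labels name no shared batch, so the numbers were not taken as pairs.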

Other observations

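Among 13 regulators of transcription known to act on BCL2 family genes, 12 were tested, and 3 were lower and 2 higher in Irf1-/- cells, beside 12.4% lower and 11.4% higher among all genes. Rel, the NF-κB subunit c-Rel that activates Bcl2l1 and the A1 genes, had 785 ± 65.0 in WT against 517 ± 69.3 normalized counts in Irf1-/- cells (SD, n = 3 each), corresponding to a log2 fold change of -0.61 (limma adjusted p = 0.00170) that was called under all 19 alternatives. Foxo3, a known activator of Bcl2l11 and Bbc3, differed by -0.29 (limma adjusted p = 0.00798), and Stat5a, which carries survival signals of IL-2, by -0.22 (limma adjusted p = 0.00870, 0.0510 without WT replicate 2). The stress factors Ddit3 (CHOP) and Atf4 were higher, by 1.0 (limma adjusted p = 0.0197) and 0.26 (limma adjusted p = 0.0261). Both lost their call without WT replicate 1 (adjusted p = 0.0798 and 0.115) or 2 (0.0862 and 0.117), and Atf4 also without Irf1-/- replicate 1 (0.0730) or 2 (0.0655), all from limma. DESeq2 did not call Ddit3 (DESeq2 adjusted p = 0.0730). With WT replicate 3 as the only WT library, Rel was called lower (-0.65, limma adjusted p = 0.0223) and no other of the 12 was called, with adjusted p from limma of 0.196 for Foxo3, 0.186 for Stat5a, 0.408 for Ddit3 and 0.603 for Atf4.

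Of 6 genes whose proteins control the stability or the anchoring of family members, 2 were lower, beside 12.4% of all genes. Usp9x, which removes ubiquitin from MCL1, had 2251 ± 140 in WT against 1743 ± 244 normalized counts in Irf1-/- cells (SD, n = 3 each) (log2 fold change -0.38, limma adjusted p = 0.0134). Without Irf1-/- replicate 1 or 2 it was not called (limma adjusted p = 0.0514 and 0.0518). Dynll2, a dynein light chain that binds BMF, had 1284 ± 30.8 and 1048 ± 34.2 (log2 fold change -0.29, limma adjusted p = 0.00382). With WT replicate 3 alone neither was called, at -0.46 for Usp9x (limma adjusted p = 0.0613) and -0.26 for Dynll2 (limma adjusted p = 0.119).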
